A study of Mus musculus with 8 samples.

Results

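The phagocyte NADPH oxidase was followed in splenic dendritic cells through 7 genes: Cybb and Cyba of the membrane core, Ncf1 and Ncf4 of the cytosolic complex, the GTPases Rac1 and Rac2, and the proton channel Hvcn1. They were chosen by name, and every probe set that the platform annotation gives to one of them was taken, 14 of the 45101 on the array. Of these, 12 reached a log2 value of 5 on at least 2 of the 8 arrays, the level used here as background, and all 7 genes were among the 8763 genes tested. A probe set of Rac1 (1437674_at) and one of Rac2 (1440208_at) stayed under 5 on every array and are not described further.

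The cells came from spleens of untreated female C57BL/6 mice of 10 weeks, wild type or RAG2-/- (labelled RAG ko), a genotype that makes no mature T or B lymphocytes but keeps its natural killer and myeloid cells. Conventional dendritic cells of each genotype were sorted into CD8α- and CD8α+ populations, and total RNA of each population was read on 2 Affymetrix mouse arrays, so that 4 groups of 2 were available. All values are log2 expression summaries as deposited. A difference of 1 is a doubling, and values of different probe sets are not set against each other, since each has its own brightness. Whether both arrays of a group came from different animals is not in the labels, and the spread behind the p-values may be technical. An exact permutation test of 2 arrays against 2 cannot go below p = 0.333, and for that reason p-values come from a model fitted over all genes with limma and adjusted by Benjamini-Hochberg; a gene is called at an adjusted p under 0.05.

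Marker genes followed the sort: of 8 CD8α+ dendritic cell markers tested 7 were called higher in CD8α+ cells of each genotype, and 7 of 7 CD8α- markers were called lower. Cd8a, the gene of the molecule used to sort, is among the 8 and is no independent check. Irf8 and Irf4 are also among these markers, and their changes are given again below with the transcription factors. Rag2 was under 5 on all arrays and therefore checks no label. B cell transcripts, summed over 9 markers, ranged on the log2 scale from 11.30 to 12.21 on the wild type arrays and from 8.13 to 8.76 on the RAG2-/- arrays, with Cd79a, Pax5 and Blk under 5 throughout. Neutrophil transcripts were high on RAG2-/- CD8α- replicate 2 and RAG2-/- CD8α+ replicate 1. Some results that rest on these arrays are also given without them, and the others are given only with them. The RAG2-/- arrays share a lowest value of 2.23, held by 40.4% to 41.9% of their probe sets, and each wild type array has its own lowest value in 1 probe set. Genotype and normalization therefore cannot be told apart, and differences between the genotypes carry both. The comparison of subsets lies within a genotype and does not carry that difference, though which arrays were normalized together is not given. Its p-values use a spread shared by all 8 arrays.

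The phagocyte oxidase transfers electrons from NADPH across the membrane to oxygen and so makes superoxide. Its core is a heme-binding pair, gp91phox (Cybb, also NOX2) and p22phox (Cyba); it is idle until cytosolic subunits, among them p47phox (Ncf1) and p40phox (Ncf4), move to the membrane together with a GTP-bound Rac protein. The Hv1 channel (Hvcn1) lets protons follow the electrons, which keeps the enzyme running. In dendritic cells the superoxide made inside phagosomes takes up protons, slows acidification and spares engulfed antigen from full digestion, which favours its presentation on MHC class I to CD8 T cells, the cross-presentation for which CD8α+ dendritic cells are known.

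The transcripts of 3 members differed between the subsets in both genotypes, and all were lower in CD8α+ cells. The difference, CD8α+ minus CD8α-, was -2.39 in wild type and -3.33 in RAG2-/- cells for Cybb, -2.48 and -1.87 for Hvcn1, and -1.24 and -0.93 for Rac2. Cyba, Ncf1, Ncf4 and Rac1 passed the test in neither genotype.

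Interferon regulatory factors and PU.1 are known to act at the Cybb promoter, and the promoter letters are shown for that reason. RefSeq promoter windows (GRCm38.p6, 250 bases before to 50 after the start site) were found for 3 of the 7 genes: Cybb, which differed between the subsets, and Cyba and Ncf1, which did not pass the test. They lie on the minus strand at chrX:9469275-9469574 (Cybb), chr8:122432891-122433190 (Cyba) and chr5:134229576-134229875 (Ncf1). Capitals mark matches, on either strand, to GAAANNGAAA, an element bound by interferon regulatory factors (called ISRE-like here), and to GGAANNGAAA, the composite element bound by PU.1 with IRF4 or IRF8 (EICE).
Cybb: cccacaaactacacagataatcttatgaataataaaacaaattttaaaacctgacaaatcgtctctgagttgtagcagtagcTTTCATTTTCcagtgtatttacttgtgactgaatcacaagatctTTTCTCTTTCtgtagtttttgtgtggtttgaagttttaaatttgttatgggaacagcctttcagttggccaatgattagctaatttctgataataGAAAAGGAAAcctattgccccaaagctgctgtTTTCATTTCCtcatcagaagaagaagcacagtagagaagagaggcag
Cyba: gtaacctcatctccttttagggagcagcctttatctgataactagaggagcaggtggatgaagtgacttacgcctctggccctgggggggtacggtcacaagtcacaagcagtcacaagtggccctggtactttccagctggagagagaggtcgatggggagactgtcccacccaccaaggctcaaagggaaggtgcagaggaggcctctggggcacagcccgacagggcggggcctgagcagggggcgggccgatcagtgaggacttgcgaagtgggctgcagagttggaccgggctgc
Ncf1: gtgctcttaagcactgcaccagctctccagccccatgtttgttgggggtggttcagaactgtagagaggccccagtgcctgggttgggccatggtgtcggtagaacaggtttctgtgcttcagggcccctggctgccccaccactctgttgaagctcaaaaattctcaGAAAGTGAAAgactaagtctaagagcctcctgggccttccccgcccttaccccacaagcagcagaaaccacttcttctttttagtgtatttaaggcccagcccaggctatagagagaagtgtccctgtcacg
In the Cybb window, ISRE-like matches began at -168, -124 and -29 from the start site and an EICE match at 4 bases after it, beside an AP-1 match (TGANTCA) at -139 and a CCAAT box at -56. The Ncf1 window held 1 ISRE-like match, at -82, and the Cyba window held none of the 5 motifs searched, the fifth being the PU.1 box GAGGAAGT, which was in none of the 3 windows. Among 32851 mouse promoter windows of this length, an ISRE-like match was found in 3.44%, an EICE match in 2.72%, the PU.1 box in 3.2%, AP-1 in 7.81% and CCAAT in 37.4%. A match is a string of letters and not a measured binding site.

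Cybb encodes gp91phox, the subunit that carries the electrons. Its brightest probe set, 1436778_at, read 11.89 and 11.82 on the wild type CD8α- arrays, 9.78 and 9.13 on the wild type CD8α+ arrays, 12.62 and 12.59 on the RAG2-/- CD8α- arrays and 8.98 and 9.56 on the RAG2-/- CD8α+ arrays. Every CD8α- array lay above every CD8α+ array, and the CD8α- arrays of the knockout were the highest. From CD8α- to CD8α+ cells the level fell by 2.39 in wild type (SE 0.28, 95% interval -3.05 to -1.74, 5.26-fold, adjusted p = 0.00139). In the knockout it fell by 3.33 (SE 0.28, interval -3.99 to -2.68, 10.1-fold, adjusted p = 0.000347). In wild type cells 4.48% of all genes tested had a change at least as large, and in the knockout 2.46%.

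The other Cybb probe sets fell under or close to the background level in CD8α+ cells. Probe set 1422978_at read 7.78 and 7.17 on the CD8α- and 3.53 and 4.73 on the CD8α+ arrays of wild type, and 8.96 and 9.02 on the CD8α- and 4.72 and 4.96 on the CD8α+ arrays of the knockout. All CD8α+ arrays were under 5 there, so against the background level CD8α+ cells held at least 5.56-fold less in wild type and at least 15.9-fold less in the knockout. The fitted changes, with values under 5 kept as deposited, were -3.34 (adjusted p = 0.0024) and -4.15 (adjusted p = 0.000998). Probe set 1436779_at read 6.89 and 7.31, 4.02 and 3.49, 9.18 and 9.75, and 5.17 and 5.20 in the same order of groups. Its change was at least 4.29-fold in wild type, where the fitted change was -3.35 (adjusted p = 0.000631), and 19.4-fold in the knockout (adjusted p = 0.000252). The 3 probe sets share the transcript of 1 gene and are not replicates, and all 3 were called in both genotypes. Probe set 1422978_at passed the filter through its CD8α- arrays alone. A lower call in CD8α+ cells was favoured there, so its calls add no support here or in the next count. Over the 12 probe sets of the 7 genes that passed the filter, 5 were called lower in CD8α+ cells and 0 higher in each genotype; of all probe sets tested, 14.1% were called in wild type, 6.27% lower, and 17.6% in the knockout, 8.85% lower.

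**Figure D1:**
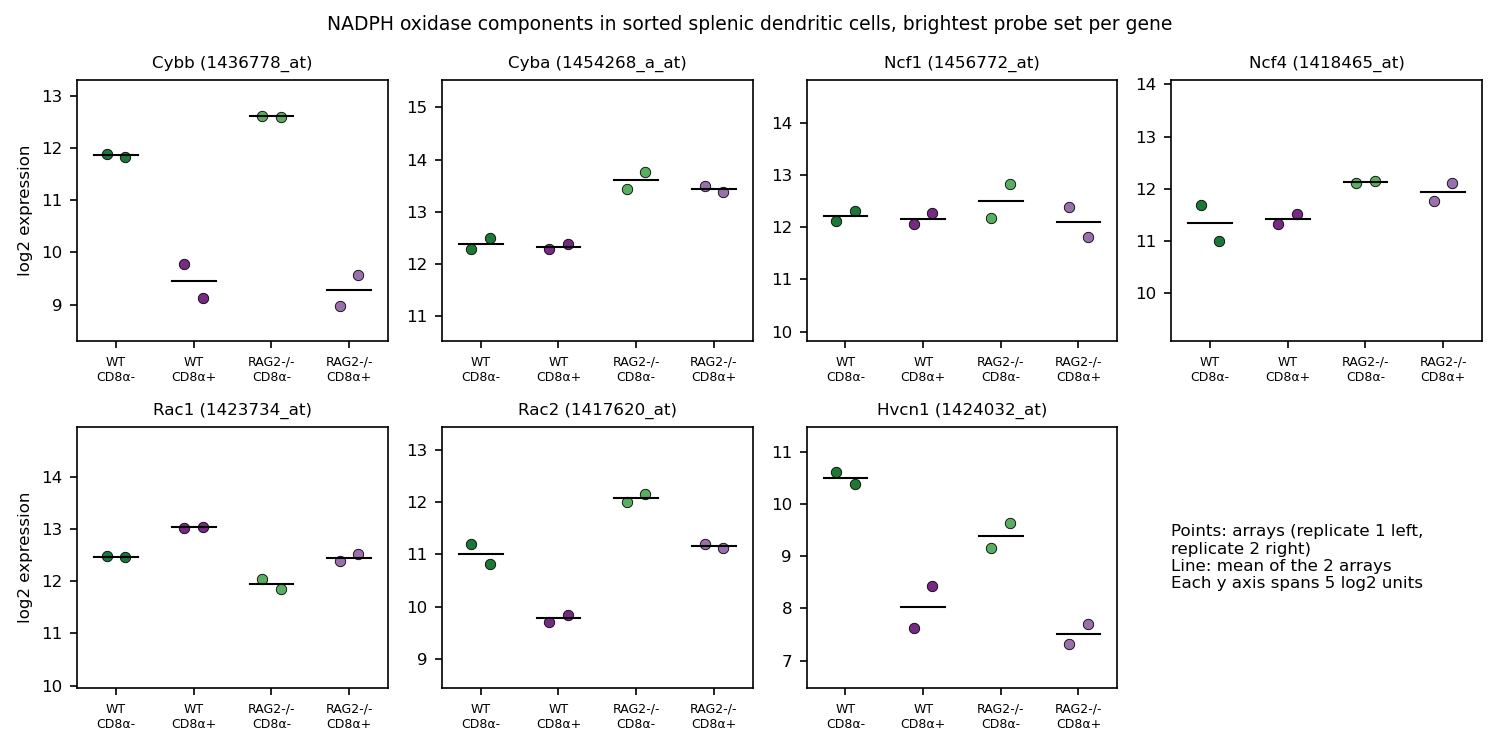
Log2 expression of the brightest probe set of each of the 7 genes on each of the 8 arrays; points are arrays, lines are the means of the 2 arrays of a group, and each y axis spans 5 log2 units. For Cybb, Hvcn1 and Rac2 the CD8α+ arrays lie under the CD8α- arrays of the same genotype, as with Cybb at 9.78 and 9.13 against 11.89 and 11.82 in wild type.

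Cyba encodes p22phox, the partner that holds gp91phox at the membrane. Its only probe set, 1454268_a_at, read 12.28 and 12.49 on the CD8α- and 12.29 and 12.38 on the CD8α+ arrays of wild type, and 13.44 and 13.77 on the CD8α- and 13.49 and 13.38 on the CD8α+ arrays of the knockout. The subsets overlapped in each genotype, and all RAG2-/- arrays lay above all wild type arrays. The subset difference was -0.05 in wild type (95% interval -0.49 to 0.40, adjusted p = 0.921) and -0.17 in the knockout (interval -0.61 to 0.28, adjusted p = 0.57).

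Ncf1 encodes p47phox, the organiser that docks on p22phox. Its brightest probe set, 1456772_at, read 12.12 and 12.31 on the CD8α- and 12.06 and 12.27 on the CD8α+ arrays of wild type, and 12.17 and 12.83 on the CD8α- and 12.39 and 11.81 on the CD8α+ arrays of the knockout. The wild type subsets overlapped, and so did those of the knockout. The subset difference was -0.05 in wild type (interval -0.73 to 0.63, adjusted p = 0.953) and -0.40 in the knockout (interval -1.08 to 0.28, adjusted p = 0.372). The dimmer probe sets 1451767_at, at 7.84 to 8.93 over the 8 arrays, and 1425609_at, at 5.52 to 6.80, passed the test in no comparison.

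Ncf4 encodes p40phox, which binds the lipid of phagosome membranes. Its probe set 1418465_at read 11.69 and 11.01 on the CD8α- and 11.32 and 11.51 on the CD8α+ arrays of wild type, and 12.11 and 12.16 on the CD8α- and 11.76 and 12.11 on the CD8α+ arrays of the knockout. The wild type CD8α- arrays spread around the CD8α+ pair, and the 4 RAG2-/- arrays were the highest. Subset differences were 0.07 in wild type (interval -0.54 to 0.68, adjusted p = 0.925) and -0.20 in the knockout (interval -0.81 to 0.41, adjusted p = 0.63). Of the intervals of Cyba, Ncf1 and Ncf4, that of Ncf1 in the knockout reaches past the Rac2 difference of that genotype (-0.93), and the others do not.

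Rac2 is the haematopoietic Rac protein that switches the oxidase on. Probe set 1417620_at read 11.19 and 10.82 on the CD8α- and 9.71 and 9.84 on the CD8α+ arrays of wild type, and 12.01 and 12.16 on the CD8α- and 11.20 and 11.12 on the CD8α+ arrays of the knockout. Within each genotype the CD8α- arrays lay above the CD8α+ arrays, and the RAG2-/- CD8α+ arrays reached the level of wild type CD8α- cells. Rac2 fell by 1.24 from CD8α- to CD8α+ cells in wild type (SE 0.19, interval -1.68 to -0.79, 2.36-fold, adjusted p = 0.00478) and by 0.93 in the knockout (SE 0.19, interval -1.38 to -0.48, 1.9-fold, adjusted p = 0.0139). The wild type call was kept without any 1 array. In the knockout it was lost without CD8α- replicate 2 (-0.85, adjusted p = 0.0509), without CD8α+ replicate 1 (-0.97, adjusted p = 0.0529) and without CD8α+ replicate 2 (-0.89, adjusted p = 0.063).

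Rac1 is the ubiquitous Rac protein and can stand in for Rac2 in phagocytes. Probe set 1423734_at read 12.48 and 12.46 on the CD8α- and 13.02 and 13.04 on the CD8α+ arrays of wild type, and 12.05 and 11.86 on the CD8α- and 12.38 and 12.53 on the CD8α+ arrays of the knockout. CD8α+ arrays lay above CD8α- arrays in each genotype, opposite to Rac2, but the differences of 0.56 in wild type (interval 0.17 to 0.95, adjusted p = 0.0596) and 0.50 in the knockout (interval 0.11 to 0.90, adjusted p = 0.0714) did not pass the test. Probe set 1451086_s_at, whose name marks probes that can match more than 1 transcript, read 11.08 and 11.53, 11.64 and 11.68, 12.29 and 12.83, and 12.52 and 12.60 in the same order of groups. Its subset differences were 0.36 (SE 0.25, adjusted p = 0.429) and 0.00 (SE 0.25, adjusted p = 1). The Rac1 probe sets disagreed on genotype: 1423734_at was lower and 1451086_s_at higher on the RAG2-/- arrays.

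**Figure D2:**
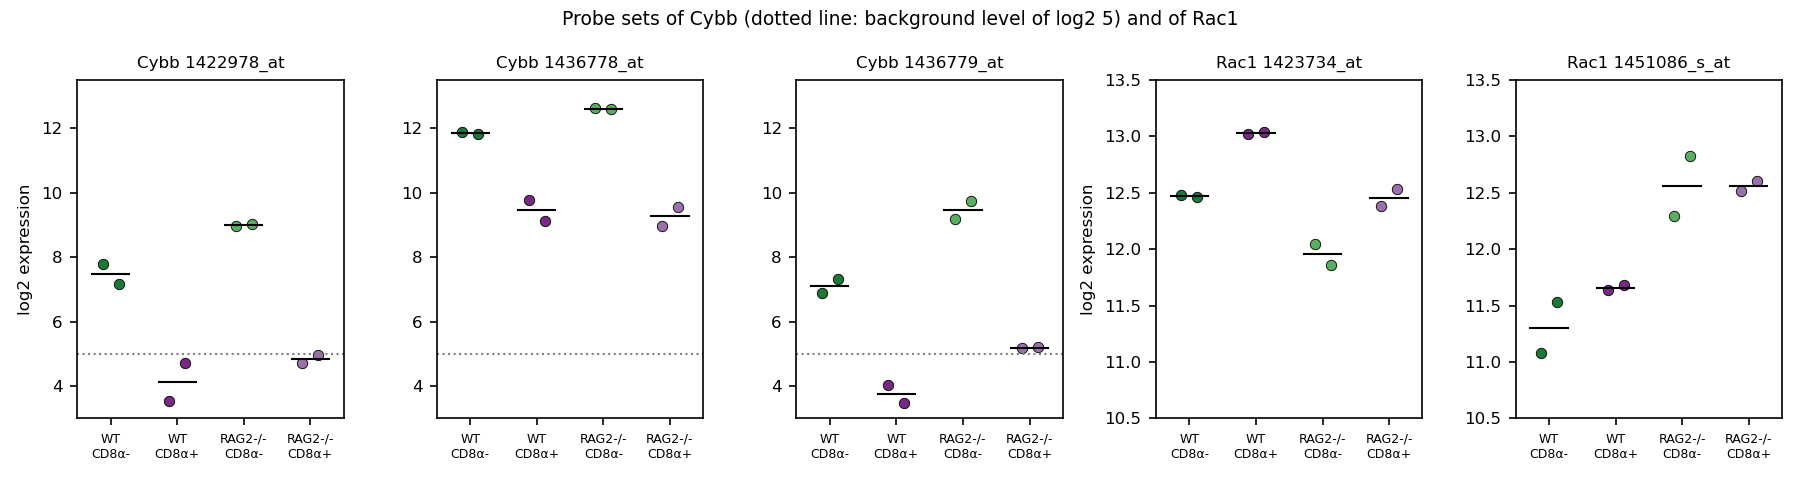
Log2 expression on each array of the 3 Cybb probe sets, with the background level of 5 dotted, and of the 2 Rac1 probe sets past the filter; points are arrays and lines are group means. The Cybb probe sets share 1 order of subsets, whereas for Rac1 the RAG2-/- arrays are, within each subset, the lower ones in 1423734_at (11.86 to 12.53) and the higher ones in 1451086_s_at (12.29 to 12.83).

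Hvcn1 encodes Hv1, the voltage-gated channel through which protons compensate the charge moved by the oxidase. Probe set 1424032_at read 10.62 and 10.39 on the CD8α- and 7.62 and 8.43 on the CD8α+ arrays of wild type, and 9.15 and 9.63 on the CD8α- and 7.32 and 7.71 on the CD8α+ arrays of the knockout. CD8α- arrays were above CD8α+ arrays in both genotypes, and wild type CD8α- cells had the highest level. Hvcn1 fell by 2.48 in wild type (SE 0.32, interval -3.22 to -1.73, 5.57-fold, adjusted p = 0.00212) and by 1.87 in the knockout (SE 0.32, interval -2.62 to -1.13, 3.67-fold, adjusted p = 0.00634). B cells are also known to express this channel. In wild type, the 9 B cell markers summed to 12.21 and 11.77 on the CD8α- and 12.04 and 11.30 on the CD8α+ arrays; the part of B cell RNA in the Hvcn1 values was not tested.

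Across the 7 genes, 3 were called lower and 0 higher in CD8α+ cells of wild type mice, where 17.1% of all genes were called, 7.87% lower and 9.23% higher. In the knockout the counts were again 3 lower and 0 higher, where 21.8% of all genes were called, 10.7% lower and 11.1% higher. The arrays of the subsets did not overlap for 4 of 7 genes in wild type and 5 of 7 in the knockout, against 60.7% and 58.1% of all genes. The median change of the 7 genes was -0.05 in wild type and -0.40 in the knockout, against 0.01 and 0.02 over all genes. Since fewer cells of a type and less RNA per cell cannot be told apart in bulk samples, a lower level is not a level per cell.

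Without both arrays that hold neutrophil transcripts, 1 array of each RAG2-/- group is left, and the test then takes its spread from the wild type arrays alone. Under that assumption the knockout difference was -3.06 for Cybb (adjusted p = 0.0169), -1.44 for Hvcn1 (adjusted p = 0.112) and -0.90 for Rac2 (adjusted p = 0.105). On the RAG2-/- CD8α- arrays, Cybb, Hvcn1 and Rac2 read 12.62, 9.15 and 12.01 without these transcripts, and 12.59, 9.63 and 12.16 with them. On the RAG2-/- CD8α+ arrays these genes read 9.56, 7.71 and 11.12 without them, and 8.98, 7.32 and 11.20 with them. The wild type arrays, with summed neutrophil levels of 6.42 to 6.86, gave the same 3 calls. Monocyte transcripts also moved with the subset: 7 markers summed to 12.43 and 12.71 in CD8α- and 11.51 and 11.66 in CD8α+ cells of wild type, and to 15.01 and 15.22 against 13.78 and 13.44 in those of the knockout. Of 4 tested, 1 was called lower in CD8α+ cells of wild type and 2 in those of the knockout, with F13a1, Fn1 and Vcan under 5 throughout. Of 9 splenic macrophage markers, 2 and 3 were called lower. The part of neutrophil, monocyte and macrophage RNA in the Cybb, Hvcn1 and Rac2 values was not tested.

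**Figure D3:**
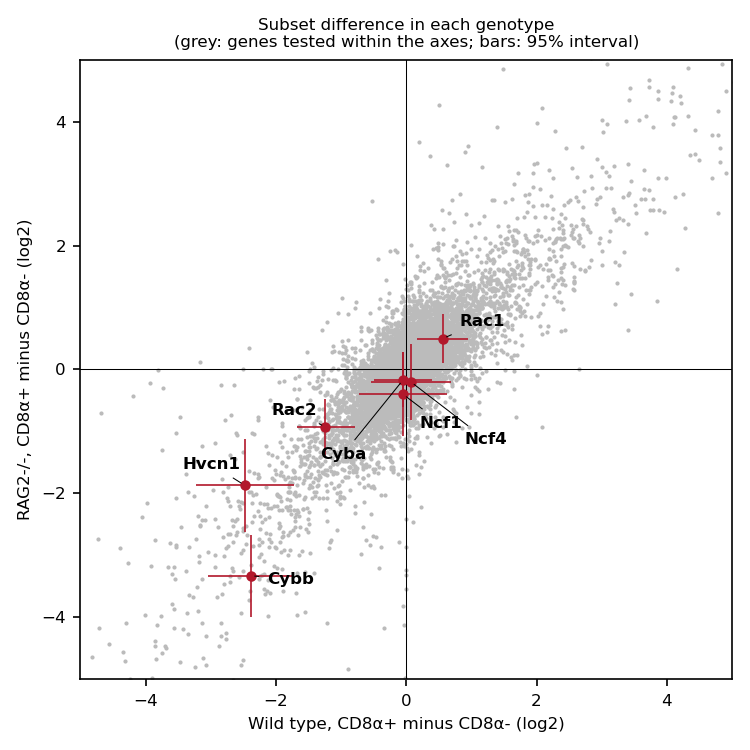
CD8α+ minus CD8α- difference (log2) in wild type on the x axis and in RAG2-/- cells on the y axis; grey points are all genes tested within the axes, red points the 7 genes with their 95% intervals. Cybb, Hvcn1 and Rac2 lie at the lower left, Cybb at -2.39 and -3.33, and the other 4 genes lie near the origin.

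The interaction term compared the size of the subset difference between the genotypes. Constant offsets shared by the arrays of a genotype cancel in it, whereas a normalization difference that varies with level does not. Of the 7 genes 0 were called, against 0.24% of all genes, and 1 had an unadjusted p under 0.05. That gene was Cybb, with an interaction of -0.94, a larger subset difference in the knockout (SE 0.39, interval -1.86 to -0.01, unadjusted p = 0.0473, adjusted p = 0.677). The share of all genes under that unadjusted level was not counted, but 7.53% had an interaction at least as large as that of Cybb. For its other probe sets the term was -0.81 and -0.93, also not called; of the 12 probe sets 0 were called, against 0.0548% of all. Hvcn1 went the other way, at 0.60 (SE 0.45, adjusted p = 0.848), and Rac2 stood at 0.31 (adjusted p = 0.87).

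Between the genotypes, Cyba and Rac2 were higher in RAG2-/- cells of both subsets. Cyba rose by 1.22 in CD8α- cells (SE 0.19, 2.33-fold, adjusted p = 0.00347) and by 1.10 in CD8α+ cells (SE 0.19, 2.15-fold, adjusted p = 0.00548). Rac2 rose by 1.08 (SE 0.19, 2.11-fold, adjusted p = 0.00542) and by 1.39 (SE 0.19, 2.61-fold, adjusted p = 0.00268). These rises were called in each of the 20 other settings run, within 1.06 to 1.88 and 1.01 to 1.78 for Cyba and 0.85 to 1.73 and 1.22 to 2.06 for Rac2, in CD8α- and CD8α+ cells respectively. Each stands beside the difference in normalization between the genotypes.

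The remaining calls between the genotypes were less firm. In CD8α- cells Ncf4 was higher by 0.79 (SE 0.26, adjusted p = 0.0468), but it was called in 7 of 20 other settings. After quantile normalization it stood at 0.55 (adjusted p = 0.104) and with the arrays centred on their medians at 1.44 (adjusted p = 0.00234). Its call held without wild type CD8α- replicate 1 and was lost without each of the other 7 arrays, down to 0.45 (adjusted p = 0.224) without wild type CD8α- replicate 2. Hvcn1 differed by -1.12 in CD8α- cells (SE 0.32, 2.17-fold lower in the knockout, adjusted p = 0.0284). The B cell markers fell with it, with 5 of 6 called lower and a median change of -4.27, and their part in the Hvcn1 value was not tested. The Hvcn1 call was kept in 15 of 20 other settings and lost without wild type CD8α- replicate 1 (-1.0, adjusted p = 0.142) or replicate 2 (-1.23, adjusted p = 0.0882), without RAG2-/- CD8α- replicate 1 (-0.87, adjusted p = 0.123), without both arrays with neutrophil transcripts (-1.36, adjusted p = 0.0599) and with each array centred on its median (-0.46, adjusted p = 0.244). In CD8α+ cells Hvcn1 stood at -0.51 (adjusted p = 0.239) and Ncf4 at 0.52 (adjusted p = 0.155), or 1.19 with centred arrays (adjusted p = 0.00553).

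Rac1 had no settled direction between the genotypes. Probe set 1423734_at differed by -0.52 in CD8α- (adjusted p = 0.0434) and -0.57 in CD8α+ cells (adjusted p = 0.0331), and turned to 0.14 and 0.10 with the arrays centred on their medians. These calls held in 8 and 9 of 20 other settings. In CD8α- cells the call was lost without any 1 wild type array or RAG2-/- CD8α- array (-0.61 to -0.42, adjusted p from 0.0561 to 0.146), and in CD8α+ cells without any 1 wild type array or RAG2-/- CD8α+ array (-0.65 to -0.50, adjusted p from 0.0561 to 0.116). Probe set 1451086_s_at was higher by 1.25 in CD8α- cells (adjusted p = 0.00952) and by 0.90 in CD8α+ cells (adjusted p = 0.0306). The first of these was lost without wild type CD8α- replicate 1 (1.03, adjusted p = 0.0627), and the second without any 1 CD8α+ array (0.86 to 0.94, adjusted p from 0.0895 to 0.119).

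Cybb also differed by probe set. In CD8α- cells 1436778_at was higher in the knockout by 0.75 (interval 0.10 to 1.40, adjusted p = 0.068), which did not pass the test. It was called in 4 of 20 other settings, within 0.54 to 1.54, among them 1.41 with median centring (adjusted p = 0.00412). Probe set 1436779_at was higher by 2.36 (SE 0.28, 5.14-fold, adjusted p = 0.00194) and 1422978_at by 1.52 (SE 0.40, adjusted p = 0.0253). The call of 1422978_at was lost without any 1 of the 4 CD8α- arrays (adjusted p from 0.0613 to 0.139). In CD8α+ cells 1436778_at stood at -0.19 (adjusted p = 0.618), and 1436779_at was at least 1.14-fold higher against the background level. The fitted log2 change of 1436779_at was 1.43 (adjusted p = 0.0103). That call was lost without wild type CD8α+ replicate 2 (1.17, adjusted p = 0.0551) and with values under 5 set to 5 (0.18, adjusted p = 0.585). As deposited, Ncf1 was called in neither subset (0.28, adjusted p = 0.461, and -0.07, adjusted p = 0.874); with median centring it stood at 0.94 in CD8α- cells (adjusted p = 0.0281) and 0.61 in CD8α+ cells, not called.

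In CD8α- cells 3 of the 7 genes were thus called higher and 2 lower, against 40.5% of all genes called, 23.4% higher and 17.1% lower. In CD8α+ cells 2 were higher and 1 lower, against 36.9% called, 20.8% higher and 16.1% lower. With the arrays centred on their medians, the members called in CD8α- cells were 5 higher (Cyba, Cybb, Ncf1, Ncf4 and Rac2) and 0 lower. In CD8α+ cells they were 3 higher (Cyba, Ncf4 and Rac2) and 0 lower. Of all genes, that scaling called 4797 higher and 502 lower in CD8α- and 4658 higher and 446 lower in CD8α+ cells. Of the 12 probe sets 5 were higher and 1 lower in CD8α- and 4 higher and 1 lower in CD8α+ cells, against 37.6% (20.2% higher, 17.4% lower) and 35.8% (18.1% higher, 17.7% lower) of all probe sets. Calls between the genotypes were thus frequent throughout the array. Groups did not overlap for 6 of 7 genes in CD8α- and 4 of 7 in CD8α+ cells, against 74.4% and 72.1% of all genes. As deposited, 57.7% and 56.4% of all calls in CD8α- and CD8α+ cells were higher in the knockout, with medians over all genes of 0.14 and 0.09; with the arrays centred on their medians 90.5% and 91.3% were higher, with medians of 0.81 and 0.78. Centring subtracts 1 value from all probe sets of an array. It therefore cannot change where Cyba (1.88 and 1.78) and Rac2 (1.73 and 2.06) stand among all genes.

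**Figure D4:**
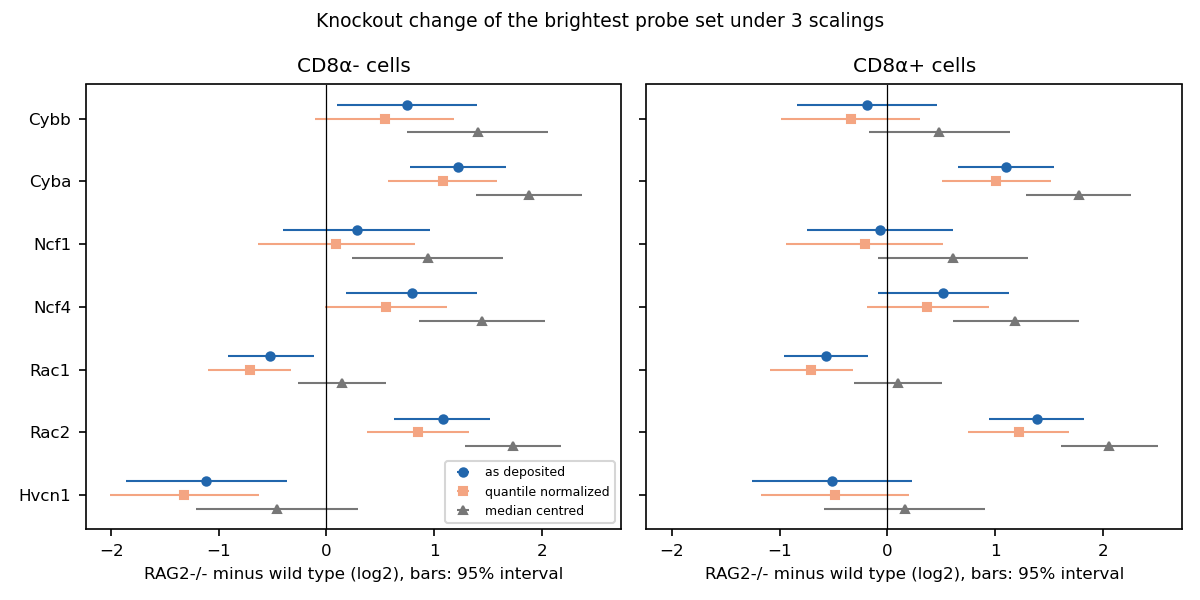
RAG2-/- minus wild type difference (log2, x axis) of the brightest probe set of each gene in CD8α- and CD8α+ cells, as deposited, quantile normalized and median centred, with 95% intervals. Cyba and Rac2 lie above 0 under all 3 scalings, whereas Rac1 turns from -0.52 to 0.14 in CD8α- cells when the arrays are median centred.

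Transcripts used as markers of other cells also moved with genotype. Whether they came from such cells or from the dendritic cells themselves was not tested, and they carry the normalization difference too. Summed on the linear scale and given as log2, 12 splenic macrophage markers ranged from 12.19 to 12.87 on the wild type arrays, from 14.53 to 14.58 in RAG2-/- CD8α- cells and from 13.32 to 13.57 in RAG2-/- CD8α+ cells. Of 9 tested, 9 were called higher in the knockout in CD8α- and 8 in CD8α+ cells, with 5 of 12 at or above 5 on each wild type array, 9 or 10 on the RAG2-/- arrays, and Marco and Siglec1 under 5 on all. The 7 monocyte markers ranged in wild type from 12.43 to 12.71 in CD8α- and 11.51 to 11.66 in CD8α+ cells, and in the knockout from 15.01 to 15.22 and 13.44 to 13.78, with 4 and 3 of 4 tested called higher and F13a1, Fn1 and Vcan under 5 throughout. The 12 neutrophil markers summed to 7.22 and 13.09 in RAG2-/- CD8α- and to 11.62 and 7.16 in RAG2-/- CD8α+ cells, against 6.42 to 6.86 in wild type; Elane, Cxcr2 and Mmp8 were under 5 on all arrays. Macrophages, monocytes and neutrophils all carry the phagocyte oxidase, and their part in the higher Cyba, Rac2 and Cybb values was not tested. Without the 2 arrays with neutrophil transcripts, where the spread comes from the wild type arrays alone, Cyba stood at 1.06 in CD8α- (adjusted p = 0.0242) and 1.04 in CD8α+ cells (adjusted p = 0.0281), and Rac2 at 1.0 (adjusted p = 0.0392) and 1.35 (adjusted p = 0.0255). The 6 natural killer cell markers summed to 7.64 to 7.90 in wild type and 9.28 to 11.73 in the knockout, with 2 and 1 of 3 tested called higher and Ncr1 and Prf1 under 5 on all arrays. The 8 CD8α+ dendritic cell markers summed to 12.16 and 12.57 in CD8α- cells of wild type and 13.02 and 14.00 in those of the knockout, with 4 of 8 called higher; the part of either was not tested.

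**Figure D5:**
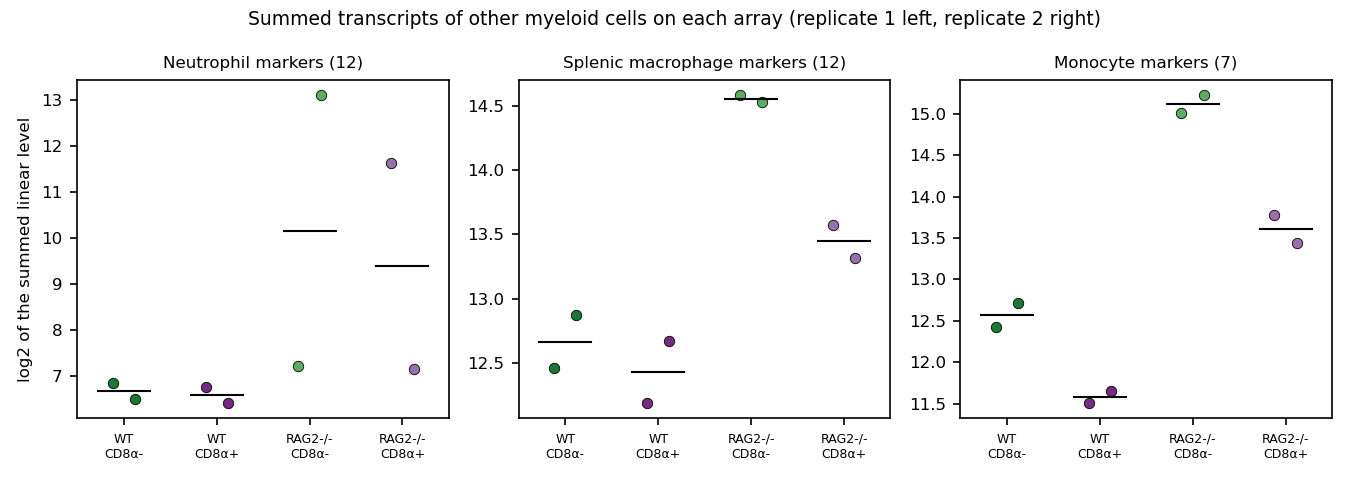
Log2 of the summed linear level of neutrophil, splenic macrophage and monocyte markers on each array; points are arrays and lines group means. Neutrophil transcripts stand out on RAG2-/- CD8α- replicate 2 (13.09) and RAG2-/- CD8α+ replicate 1 (11.62), and macrophage and monocyte transcripts are higher on all 4 RAG2-/- arrays.

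Other genes of the pathway were taken from 6 lists, whose counts stand beside the shares of all genes: 9.23% higher and 7.87% lower between the subsets in wild type, 11.1% and 10.7% in the knockout, and between the genotypes 23.4% and 17.1% in CD8α- and 20.8% and 16.1% in CD8α+ cells. Of 12 other oxidase subunits and homologues, 7 were on the array and 1 passed the filter: Cybc1, a chaperone that the gp91phox and p22phox pair needs to assemble. Its subset difference was -0.30 in wild type (SE 0.32, adjusted p = 0.612) and -0.69 in the knockout (SE 0.32, adjusted p = 0.173), and it was higher in RAG2-/- cells by 1.54 in CD8α- (SE 0.32, adjusted p = 0.00939) and 1.15 in CD8α+ cells (SE 0.32, adjusted p = 0.0288). Both rises were also called after quantile normalization and median centring, and neither was without the 2 arrays with neutrophil transcripts (1.42, adjusted p = 0.0786, and 1.18, adjusted p = 0.122). The CD8α- call was also lost without either wild type CD8α- array (1.48 to 1.61, adjusted p from 0.0535 to 0.0601). The CD8α+ call was lost without any 1 wild type array other than CD8α+ replicate 2 and without either RAG2-/- CD8α+ array (0.64 to 1.15, adjusted p from 0.0578 to 0.104).

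Of 19 regulators of the oxidase, 3 were called higher and 4 lower in CD8α+ cells of wild type, where 17.1% of all genes were called, and 1 higher and 3 lower in those of the knockout, where 21.8% were. Tiam1, an exchange factor that loads Rac with GTP, rose by 2.21 in wild type (SE 0.27, adjusted p = 0.00185) and 1.60 in the knockout (SE 0.27, adjusted p = 0.00663). Its knockout call was kept in 18 of 19 other settings and lost without the 2 arrays with neutrophil transcripts. The kinase Syk, which acts below Fc and lectin receptors, differed by -1.41 (SE 0.21, adjusted p = 0.00433) and -1.98 (SE 0.21, adjusted p = 0.000908). Prkcb, a protein kinase C that phosphorylates p47phox, differed by -1.41 (SE 0.30, adjusted p = 0.019) and -1.55 (SE 0.30, adjusted p = 0.0117), and Pla2g4a, a cytosolic phospholipase, by -1.53 (adjusted p = 0.00561) and -1.73 (adjusted p = 0.00303). The exchange factor Vav2 fell by 1.65 in wild type (adjusted p = 0.00835) and stood at -0.92 in the knockout (adjusted p = 0.0628). The Vav2 call was lost without wild type CD8α- replicate 2 (-1.43, adjusted p = 0.0702) or CD8α+ replicate 2 (-1.54, adjusted p = 0.0673). The Prkcb calls were lost without any 1 wild type array in wild type (-1.57 to -1.24, adjusted p from 0.0588 to 0.122), and in the knockout without CD8α- replicate 1 (-1.21, adjusted p = 0.0584) or CD8α+ replicate 1 (-1.23, adjusted p = 0.066).

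Between the genotypes, 7 regulators were higher and 2 lower in CD8α- cells and 3 higher and 1 lower in CD8α+ cells as deposited, against 15 higher and 0 lower, and 12 higher and 1 lower, with the arrays centred on their medians. Of all genes, 40.5% and 36.9% were called as deposited. With the arrays centred, 4797 and 4658 of all genes were called higher. Arhgdib, which holds Rac proteins inactive in the cytosol of blood cells, was higher by 2.30 (SE 0.42, adjusted p = 0.00603) and 2.37 (SE 0.42, adjusted p = 0.00625). Vav3 was higher by 1.67 (adjusted p = 0.00338) and 1.33 (adjusted p = 0.00813). Rab27a, a GTPase that brings the oxidase to phagosomes, differed by -1.41 in CD8α+ cells (SE 0.18, adjusted p = 0.00213). Without both arrays with neutrophil transcripts Arhgdib in CD8α- cells (1.90, adjusted p = 0.0527) and Vav3 in CD8α+ cells (1.19, adjusted p = 0.0559) lost their calls.

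Among 16 genes that remove superoxide and peroxide, 4 were higher and 1 lower in CD8α+ cells of wild type and 7 higher and 1 lower in those of the knockout, against 17.1% and 21.8% of all genes called. Gclc, the catalytic subunit of the enzyme that begins glutathione synthesis, rose by 3.65 in wild type (SE 0.19, adjusted p = 7.1e-05) and 2.91 in the knockout (SE 0.19, adjusted p = 0.000131). Thioredoxin (Txn1) rose by 1.58 (SE 0.16, adjusted p = 0.000823) and 1.71 (SE 0.16, adjusted p = 0.000594), and peroxiredoxin 2 (Prdx2) by 1.30 (adjusted p = 0.0082) and 1.03 (adjusted p = 0.0181). Gpx4, which reduces lipid peroxides, fell by 0.99 in wild type (adjusted p = 0.0125). In the knockout Prdx4 rose by 1.49 (adjusted p = 0.0222), a call kept in 14 of 19 other settings. The Prdx2 call was lost in wild type without any 1 array but CD8α+ replicate 1 (1.23 to 1.32, adjusted p from 0.0555 to 0.0644) and in the knockout without any 1 but CD8α- replicate 2 (0.75 to 1.16, adjusted p from 0.0503 to 0.0886). That of Gpx4 was lost without any 1 wild type array but CD8α- replicate 2 (-1.03 to -0.81, adjusted p from 0.058 to 0.0822). In RAG2-/- cells 5 of the 16 were higher in the CD8α- and 2 in the CD8α+ subset, with 0 lower, against 23.4% and 20.8% of all genes called higher. With median centring 9 and 12 were higher, beside 4797 and 4658 of all genes. Hmox1, the heme-degrading enzyme that is abundant in red pulp macrophages, was at least 8.75-fold higher in CD8α- cells against the background level. Its fitted change there was 4.27 (adjusted p = 0.00421). In CD8α+ cells it was higher by 3.70 (SE 0.70, adjusted p = 0.00769), and by 2.74 without the arrays with neutrophil transcripts. These values stand beside the higher macrophage transcripts given above.

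Of 6 enzymes that supply NADPH, the isocitrate dehydrogenase Idh1 alone was called between the subsets of wild type, higher in CD8α+ cells by 1.79 (SE 0.22, adjusted p = 0.00172). In the knockout it was higher by 1.14 (adjusted p = 0.0106), with the malic enzyme Me2 higher by 0.68 (adjusted p = 0.0476). Both of these knockout calls were lost without the 2 arrays with neutrophil transcripts. Without RAG2-/- CD8α+ replicate 1 the Idh1 call of the knockout was lost (1.06, adjusted p = 0.0603), and that of Me2 was lost without any 1 of the 8 arrays (0.54 to 0.81, adjusted p from 0.0544 to 0.18). Between the genotypes 2 were higher and 2 lower in CD8α- cells and 1 higher and 2 lower in CD8α+ cells, against 40.5% and 36.9% of all genes called. Transketolase (Tkt) differed by -1.14 (SE 0.18, adjusted p = 0.00394) and -1.18 (SE 0.18, adjusted p = 0.004), calls that were lost with median centring, under which 3 of the 6 were higher and 0 lower in each subset.

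Of 11 genes of phagosome traffic and cross-presentation, 3 were higher in CD8α+ cells of wild type and 2 in those of the knockout, with 0 lower, against 9.23% and 11.1% of all genes called higher. Rab7b, a late endosomal GTPase, rose by 5.69 (SE 0.68, adjusted p = 0.00165) and 4.61 (SE 0.68, adjusted p = 0.00365). Slc9a9, a sodium-proton exchanger of endosomes, rose by 1.56 (SE 0.25, adjusted p = 0.00537) and 1.21 (SE 0.25, adjusted p = 0.0137). Rab43, a GTPase needed for cross-presentation by CD8α+ dendritic cells, rose by 1.14 in wild type (adjusted p = 0.0162) and stood at 0.71 in the knockout (adjusted p = 0.0737). The Rab43 call was lost without either CD8α- array of wild type or CD8α+ replicate 2 (0.88 to 1.30, adjusted p from 0.0536 to 0.114). The Slc9a9 calls were lost without wild type CD8α- replicate 2 (1.46, adjusted p = 0.0513) and without either RAG2-/- CD8α+ array (1.19 to 1.23, adjusted p from 0.0627 to 0.0643). Between the genotypes 4 were higher in CD8α- and 1 in CD8α+ cells, against 23.4% and 20.8% of all genes. With median centring 9 and 9 were higher, beside 4797 and 4658 of all genes. Vamp8, a fusion protein of late endosomes that recruits the oxidase to phagosomes, was higher by 1.66 in CD8α- (SE 0.21, adjusted p = 0.00177) and 1.99 in CD8α+ cells (SE 0.21, adjusted p = 0.00125). Rab7b was higher by 3.04 in CD8α- cells (adjusted p = 0.0128), a call kept in 17 of 19 other settings.

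Of 7 transcription factors known to act on oxidase genes in myeloid cells, 1 was higher and 2 lower in CD8α+ cells of both genotypes, against 17.1% and 21.8% of all genes called. Irf8, a partner of PU.1 at the Cybb promoter, rose by 3.79 in wild type (SE 0.56, adjusted p = 0.00396) and 2.58 in the knockout (SE 0.56, adjusted p = 0.0173), opposite to Cybb itself; the knockout call was lost without either CD8α+ array (2.45 to 2.71, adjusted p from 0.0719 to 0.0881). Irf4, which binds the same composite element, differed by -2.51 (SE 0.22, adjusted p = 0.000451) and -4.69 (SE 0.22, adjusted p = 3.6e-05), and Meis1 by -1.09 (adjusted p = 0.0197) and -1.20 (adjusted p = 0.0121). The Meis1 call was lost without any 1 wild type array in wild type (-1.15 to -1.03, adjusted p from 0.073 to 0.111) and without CD8α- replicate 1 in the knockout (-1.21, adjusted p = 0.0529). Spi1, the gene of PU.1, was named for its role and not by the size of its change; its differences of -0.30 (SE 0.42, adjusted p = 0.72) and -0.09 (SE 0.42, adjusted p = 0.908) did not pass the test. Between the genotypes 2 factors were higher and 1 lower in CD8α- cells and 1 higher and 2 lower in CD8α+ cells, against 40.5% and 36.9% of all genes called; with median centring the counts were 4 and 1, and 3 and 2. Irf4 differed by -2.47 in CD8α+ cells (SE 0.22, adjusted p = 0.000849). Meis1 differed by -2.55 in CD8α- (adjusted p = 0.000769) and -2.66 in CD8α+ cells (adjusted p = 0.000867). In the limma interaction, 0 of the 60 tested genes of the 6 lists were called, against 0.24% of all genes. An unadjusted p under 0.05 was found for 4 of them, and the share of all genes under that level was not counted.

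Among the 7 genes themselves, the pattern over the 8 arrays was nearest to that of Cybb in Hvcn1 (Pearson r = 0.82) and Rac2 (0.68), and lower in Ncf1 (0.39), Ncf4 (0.20) and Cyba (0.18), with Rac1 at -0.72. The arrays fall into 4 groups, so these values describe group levels and carry no test. Over all genes tested, the 5 nearest to Cybb were Ptpro (r = 0.996), Gcnt2 (0.993), Stra6l (0.990), Cyp4f16 (0.989) and Ackr1 (0.988). Ptpro, a receptor-type tyrosine phosphatase, had group means of 11.45 in CD8α- and 7.70 in CD8α+ cells of wild type, and of 12.40 and 7.81 in those of the knockout, with both CD8α- means above both CD8α+ means as for Cybb.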

How the data were processed

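The deposited values are log2 summaries per probe set. GCRMA and affy (wild type arrays) or GCRMA alone (RAG2-/- arrays) made them per the submitters' processing notes, and which arrays were normalized together is not given in the sources used here. Of 45101 probe sets, 34945 had 1 gene in the platform annotation, 932 several, 9160 none, and 64 were controls. Genes that reached 5 on 2 or more of 8 arrays were tested, each by its probe set of highest mean (8763 genes); every named probe set past the filter was also fitted on its own (14603). The fit used limma 3.58.1 (R 4.3.3, eBayes) with the 4 groups as terms and 4 residual degrees of freedom, for 5 2-sided comparisons adjusted by Benjamini-Hochberg and 95% intervals. "At least" folds are taken against 5 and have no test of their own. Arrays of one replicate number did not deviate together (r from -0.146 to 0.112), so they were not paired. Simulated data with 200 changed genes were used to check the fit. Genes of the lists were named from the larger called changes, at most 4 a list and comparison, and some called genes are left out. The 5 genes nearest to Cybb were named by correlation. The oxidase genes, the lists and the tests were chosen with earlier results of these data known. Alternatives covered scaling, filter, floor, probe set choice, variance model, replicate block and arrays left out; leaving out the 2 arrays with neutrophil transcripts was chosen after seeing the data. The number of arrays limits the precision.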

Additional observations from a re-analysis of the deposited data

How the results depend on the processing

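In 20 other settings (19 for the interaction), the lower levels of Cybb, Hvcn1 and Rac2 in CD8α+ cells of wild type and of Cybb in those of the knockout were called every time, within -3.03 to -2.07, -2.88 to -2.08, -1.42 to -1.05 and -3.92 to -3.05. The number of the 7 genes called in the knockout subset comparison went from 3 to 1 without the 2 arrays with neutrophil transcripts, where each RAG2-/- group has 1 array and is assumed to vary like the wild type groups. In the genotype comparison of CD8α- cells it went from 5 to 3 with the replicate block, 3 with each probe set on its own and 2 without those 2 arrays. Leaving out 1 array gave 3 to 3 genes in wild type subsets, 2 to 3 in knockout subsets, 2 to 4 between genotypes in CD8α-, 2 to 3 in CD8α+ cells and 0 to 0 in the interaction.

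With the replicate number as a block, the calls were 3 in each subset comparison, 3 between genotypes in CD8α- cells (Cyba, Rac2 and Hvcn1), 2 in CD8α+ cells (Cyba and Rac2) and 0 in the interaction; Rac1 (adjusted p = 0.0648 and 0.0514) and Ncf4 (0.0667) lost theirs. The numbers are shared labels only, and all genes called in the interaction went from 21 to 3.

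Directions turned as follows, and the cause was not tested. Between genotypes in CD8α- cells, Rac1 was 0.14 with median centring and 0.37 as the mean of its probe sets, Ncf1 -0.04 without the 2 arrays, and Ncf1 probe set 1425609_at 0.31 with median centring. In CD8α+ cells, median centring gave 0.48 for Cybb, 0.61 for Ncf1, 0.10 for Rac1 and 0.16 for Hvcn1; the mean of probe sets gave 0.65, 0.23 and 0.16 for Cybb, Ncf1 and Rac1; leaving out the 2 arrays gave 0.10 for Cybb and -0.22 for 1425609_at. In the interaction Rac1 was 0.00 after quantile normalization. Of the listed genes, the mean of probe sets turned Me2 (0.12) and Slc9a9 (-0.26) between genotypes in CD8α- cells, and Spi1 was 0.02 in knockout subsets without the 2 arrays. Of these, Rac1 (genotype), Me2 and Slc9a9 were called as deposited.

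Leaving out 1 array turned uncalled values: in wild type subsets Cyba (-0.16 to 0.06), Ncf1 (-0.16 to 0.05), Ncf4 (-0.27 to 0.40), 1425609_at (-0.26 to 0.05), 1451767_at (-0.05 to 0.35), Cybc1 (-0.81 to 0.21) and Spi1 (-0.75 to 0.15); in knockout subsets Spi1 (-0.55 to 0.37), 1451086_s_at (-0.27 to 0.28) and 1451767_at (-0.31 to 0.19); between genotypes Ncf1 (-0.04 to 0.61) and 1425609_at (-0.73 to 0.04) in CD8α- and Cybb (-0.52 to 0.14), Ncf1 (-0.36 to 0.22) and 1425609_at (-0.22 to 0.65) in CD8α+ cells; in the interaction Cyba (-0.28 to 0.04), Ncf4 (-0.60 to 0.07), Rac1 (-0.16 to 0.04) and 1451767_at (-0.46 to 0.04).

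Over all genes, calls in the interaction were 33.3% higher as deposited and 50% after quantile normalization, and dropping the filter raised the calls between genotypes from 3548 to 10923 in CD8α- and from 3230 to 10678 in CD8α+ cells, over more probe sets tested. Genotype differences stay tied to the normalization, and 2 arrays a group limit every interval.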
